A study of Mus musculus with 8 samples.

Results

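The 10 genes described here make melanin or shape the melanosome, the organelle in which pigment cells store it: Mitf, Tyr, Tyrp1, Dct, Pmel, Mlana, Slc45a2, Oca2, Gpr143 and Trpm1. They were found by gene name among the non-control probes of the arrays, where 16 probes carried one of these names. After 1 Trpm1 probe with an outlier spot was set aside, 15 probes of the 10 genes remained, of 55419 probes and 34652 genes in all. The study asked how activin, a ligand of the TGF-beta family, and SAG, an agonist of the Sonic hedgehog pathway, steer mouse embryonic stem (ES) cells that differentiate toward anterior neural and retinal fates.

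RNA of 8 groups was hybridised, 1 Cy3-labelled Agilent array for each. Cells of the K/l-EB5 line (male, 129/Ola background, with GFP reporting Rax) had differentiated for 10 days in serum-free medium with N2 and B27 and received the Wnt inhibitor IWR-1-Endo at 5 µM from day 3. After a delay of 12 h they received activin A at 10 ng/ml or SAG at 100 nM, and each culture was sorted into RAX-positive and RAX-negative cells. The Wi control was E14Tg2A cells (male, 129/Ola) at the same 10 days with the Wnt inhibitor and neither factor, with no sort named. Eye, cerebral cortex and diencephalon/hypothalamus came from embryos of mixed sex of the Sv129s6 strain at embryonic day 12.5. The Wnt inhibitor was thus common to all 5 cultures, and no culture without it was compared. RNA of 3 sets of experiments had been pooled for each array, so the groups have no replicates, and the differences below carry no p-value apart from 1 model over the sorted arrays. Because tissues and cultures also differ in strain, source and strain cannot be told apart. 129/Ola mice are known for coat-colour alleles at Tyr and Oca2, which were not examined here. The Wi control is a separate line on a slide of its own (slide 2), whereas the 7 other arrays shared slide 1.

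Melanin is made in the eye by the retinal pigment epithelium, which forms from the optic cup, and by melanocytes, which come from the neural crest. In both, the transcription factor Mitf turns on the enzymes and the structural proteins of the melanosome through E-box sequences in their promoters, among them the longer M-box. In the developing eye Mitf is first present throughout the optic vesicle and is then shut off in the future neural retina.

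The stretches of 250 bases before the start of the 4 genes whose promoter held the core of the M-box, TCATGTG, are shown first, because this motif is the known meeting point of Mitf and its targets. They are RefSeq sequences on build GRCm38.p6, written 5′ to 3′ on the strand of the gene, with the core in capitals (CACATGA where it lies on the opposite strand).
Tyr, chr7:87493513-87493762, minus strand: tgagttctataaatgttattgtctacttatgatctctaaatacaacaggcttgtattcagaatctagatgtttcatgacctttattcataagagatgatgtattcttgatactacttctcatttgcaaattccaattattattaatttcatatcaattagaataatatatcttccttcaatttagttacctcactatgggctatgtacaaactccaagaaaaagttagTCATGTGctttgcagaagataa
Tyrp1, chr4:80833963-80834212, plus strand: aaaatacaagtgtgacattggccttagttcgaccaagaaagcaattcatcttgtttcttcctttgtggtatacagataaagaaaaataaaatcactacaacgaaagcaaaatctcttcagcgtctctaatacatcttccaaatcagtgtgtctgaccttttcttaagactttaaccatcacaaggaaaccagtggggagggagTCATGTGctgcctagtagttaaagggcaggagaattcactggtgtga
Dct, chr14:118052247-118052496, minus strand: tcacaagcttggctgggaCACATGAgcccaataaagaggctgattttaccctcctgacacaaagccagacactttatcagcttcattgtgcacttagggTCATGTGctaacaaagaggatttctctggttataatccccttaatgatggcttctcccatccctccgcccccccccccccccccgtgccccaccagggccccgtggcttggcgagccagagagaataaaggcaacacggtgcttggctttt
Trpm1, chr7:64153585-64153834, plus strand: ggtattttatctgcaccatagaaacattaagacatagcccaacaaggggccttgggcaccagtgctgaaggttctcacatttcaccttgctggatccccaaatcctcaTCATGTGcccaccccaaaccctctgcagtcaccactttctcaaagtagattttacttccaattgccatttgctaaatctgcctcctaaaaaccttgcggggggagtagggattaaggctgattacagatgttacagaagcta

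Promoter windows of 250 bases before to 50 bases after the start were listed for 6 of the 10 genes, in 9 entries, 3 of them of Mitf and 2 of Trpm1. No entry was matched for Pmel, Slc45a2, Mlana or Gpr143. The full M-box, searched on both strands, was in 7 of 32851 promoters (0.0213%), 2 of which were those of Tyr and Tyrp1. It began 24 bases before the start of Tyr and 49 bases before the start of Tyrp1. The core TCATGTG, which lies within the M-box, was in 3.77% of promoters and in those of Tyr, Tyrp1, Dct and Trpm1, with 2 matches in Dct, 1 on each strand. The shorter E-box CATGTG, which lies within the core, was in 14.15% of promoters and in 5 of these genes, the 4 already named and Oca2. The E-box CACGTG was in 7.15% of promoters and in 1 of these genes, Trpm1. The motif TAATCC, bound by OTX factors, was in 7.06% of promoters and in those of Mitf, Tyrp1, Dct and Trpm1. These matches describe the letters of the windows, and binding was not measured.

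Signals are given as log2 of the signal divided by the 75th percentile of the array, so that 0 is the 75th percentile itself. A probe was called detected where the scanner software marked it well above background. Where only the brighter array of a pair was detected, the fold is a lower bound, written "at least", set against the higher of the dim probe's own signal and the lowest signal that was well above background on the dim array. A gene was called higher or lower if the brighter array detected it and the 2 levels lay 1 or more apart on the log2 scale (2-fold). The software's own error of a log2 difference between 2 arrays was 0.20 at the median, and it covers the measurement of the spot, not the spread between cultures.

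Depth was unequal: 59.5% to 79.3% of spots were well above background, with RAX-positive activin cells at the top. That array also detected 44.5% of 1359 genes for olfactory and vomeronasal receptors, which should be silent here, whereas the 7 others detected 11.9% to 24.6%. By the spike-in controls it had the highest detection limit, a log10 of 1.77 against 0.81 to 1.21 on the others. The software marked the spike-in slope as out of range for RAX-positive activin cells, both SAG populations and diencephalon/hypothalamus. Rax, the gene behind the sort, was 5.45 and 5.49 in the 2 RAX-positive populations (activin, SAG) and 2.30 and 3.08 in the RAX-negative ones. Eye had 4.53, and the Wi control -4.08. In the eye array 17 of 18 lens genes, 6 of 13 neural retina genes and 9 of 11 genes of the periocular mesenchyme were above all 5 cultures. Of the cortex genes 0 of the 7 detected in eye were, and of the diencephalon genes 0 of 5. The share over all genes detected in eye was 4.94%.

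All 10 pigment genes were detected in the eye and 9 in diencephalon/hypothalamus, where only Tyrp1 was missing. In the cultures, 8 were detected in RAX-positive cells after activin, 7 in RAX-negative cells after activin, 7 in the Wi control, and 5 in each of the SAG populations. Cortex had 7. Oca2 was detected in eye and diencephalon/hypothalamus and in no culture. Slc45a2 was detected in 1 culture, RAX-positive cells after activin, and Gpr143 in 1, the Wi control. The count of 8 in RAX-positive activin cells came from the array that also showed the most receptor genes, and the part of array sensitivity in it was not tested.

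**Figure D1:**
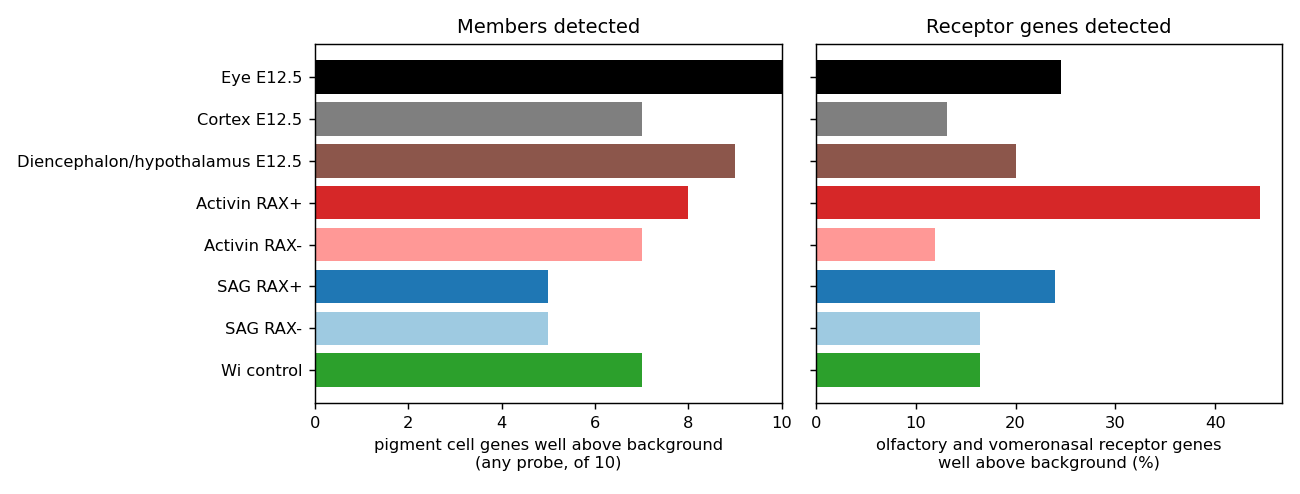
Left, the number of the 10 pigment genes detected by any probe on each array; right, the percent of 1359 olfactory and vomeronasal receptor genes detected on the same array. The eye had all 10 genes with 24.6% of receptor genes, and RAX-positive activin cells had 8 with 44.5%.

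Mitf, the transcription factor of both pigment lineages, was detected on all 8 arrays. Its level (probe at mm9 chr6:97971229-97971288) was 3.57 in eye, -1.14 in cortex and -1.34 in diencephalon/hypothalamus. In RAX-positive and RAX-negative cells it was -0.47 and -0.98 after activin and -1.70 and -2.31 after SAG, and it was -1.26 in the Wi control. Eye stood far above a narrow band of the other arrays, and within that band both activin populations were at the top and both SAG populations at the bottom. RAX-negative activin cells, cortex, the Wi control and diencephalon/hypothalamus each lay within the measurement error of the next in order. The eye was 16.5-fold above RAX-positive activin cells and 59.2-fold above RAX-negative SAG cells, the nearest and the farthest culture. A second probe, at chr6:97968501-97968560, was 2.70 in eye and -3.13 to -1.30 elsewhere, with RAX-positive activin cells highest among the cultures and RAX-negative SAG cells lowest. By that probe RAX-negative activin cells (-1.90) and RAX-positive SAG cells (-1.93) were level.

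Tyr, the oxidase that starts melanin synthesis from tyrosine, was 1.44 in eye (probe at mm9 chr7:94632414-94632473, minus strand), -4.81 in cortex and -4.96 in diencephalon/hypothalamus. In the cultures it was -3.41 and -4.55 in RAX-positive and RAX-negative cells after activin, -4.09 and -4.26 after SAG and -3.84 in the Wi control. Eye was 28.9-fold above the highest culture, RAX-positive activin cells. The 5 lowest levels, from SAG RAX-positive cells down to diencephalon/hypothalamus, each lay within the measurement error of the next. The other Tyr probe, at chr7:94576265-94576324, was printed in 10 spots on each array and was detected in eye alone. There its 9 spots without an outlier call gave signals of 304 to 342, and no spot on the 7 other arrays exceeded a signal of 10.3. By this probe eye was at least 13.0-fold above the cultures, so the 2 Tyr probes shared the direction and differed on whether the cultures held a signal above background.

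Tyrp1, an enzyme of the later steps of eumelanin synthesis, was 3.11 in eye (mm9 chr4:80497524-80497583). It was -3.01 in RAX-negative and -4.89 in RAX-positive activin cells and -4.58 in the Wi control. On the other 4 arrays it was not well above background, with measured values of -5.87 in cortex, -7.33 in diencephalon/hypothalamus, -8.23 in RAX-positive and -7.75 in RAX-negative SAG cells. Among the cultures, then, 3 of the 5 had a Tyrp1 signal above background, and neither SAG population did. Eye was 69.5-fold above RAX-negative activin cells, 206-fold above the Wi control and 256-fold above RAX-positive activin cells. Against the SAG cells it was at least 425-fold higher in the RAX-negative and at least 584-fold higher in the RAX-positive population.

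Dct, which converts dopachrome in the melanin pathway and is also known from the embryonic telencephalon, was 5.67 in eye and 3.98 in cortex (mm9 chr14:118412029-118412088, minus strand). It was -2.67 in diencephalon/hypothalamus, -1.87 and -4.12 in RAX-positive and RAX-negative activin cells, and -4.56 in RAX-positive SAG cells. It was not well above background in RAX-negative SAG cells (-5.81) or in the Wi control (-7.31). Eye was 3.23-fold above cortex, the smallest eye difference among the 9 genes other than Trpm1 on any array. Against the cultures the eye fold was 186 for RAX-positive activin cells, 887 for RAX-negative activin cells, 1199 for RAX-positive SAG cells and at least 4114 for the Wi control. The other Dct probe shares 44 of its bases with this one and is no independent reading. It was 4.84 in eye and 3.02 in cortex, and it was not detected in RAX-negative activin cells, RAX-negative SAG cells or the Wi control.

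Pmel forms the fibrils on which melanin settles. Its level was 5.55 in eye (mm9 chr10:128156029-128156986), -5.02 in cortex and -3.03 in diencephalon/hypothalamus. In the cultures it was -1.85 and -1.52 in RAX-positive and RAX-negative activin cells, -3.98 and -3.68 in the SAG cells and -2.38 in the Wi control. It was detected everywhere, and the cultures fell into the order activin, Wi control, SAG, without overlap between the activin and the SAG pair. Eye was 134-fold to 738-fold above the cultures and 1522-fold above cortex. Mlana, a melanosome membrane protein that works with Pmel, was 2.80 in eye (mm9 chr19:29782737-29782796), -5.44 in cortex and -3.45 in diencephalon/hypothalamus. It was -4.92 and -3.68 in RAX-positive and RAX-negative activin cells, -5.09 in RAX-negative SAG cells, -4.27 in the Wi control, and not well above background in RAX-positive SAG cells (-6.28). RAX-positive activin cells, RAX-negative SAG cells and cortex each lay within the measurement error of the next, so the activin and SAG ranges of Mlana were not separate across the gates. Eye was 89.2-fold above RAX-negative activin cells and at least 472-fold above RAX-positive SAG cells.

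The transporters were near or below background outside the eye. Slc45a2, a transporter of the melanosome membrane, was -0.07 in eye (mm9 chr15:10958929-10958988), -5.24 in RAX-positive activin cells and -5.78 in diencephalon/hypothalamus, and not well above background on the 5 other arrays (-8.52 to -6.63). Eye was 36.1-fold above RAX-positive activin cells and at least 44.6-fold above the other cultures. Oca2, an ion channel that sets melanosome pH, was 1.31 in eye (mm9 chr7:63791667-63791726) and -6.61 in diencephalon/hypothalamus, with values of -7.99 to -6.23 that were not well above background on the 6 others. Eye was 244-fold above diencephalon/hypothalamus and at least 116-fold above each culture. Neither transporter had a second probe to set beside these readings.

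Gpr143, the melanosome receptor that is altered in ocular albinism, was 0.08 in eye (mm9 chrX:149243130-149243189), -5.10 in the Wi control, -5.84 in diencephalon/hypothalamus and -6.05 in cortex. In the 4 sorted populations it was not well above background, with values of -7.89 to -5.99. Eye was 36.1-fold above the Wi control and at least 49.3-fold above the sorted cells.

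**Figure D2:**
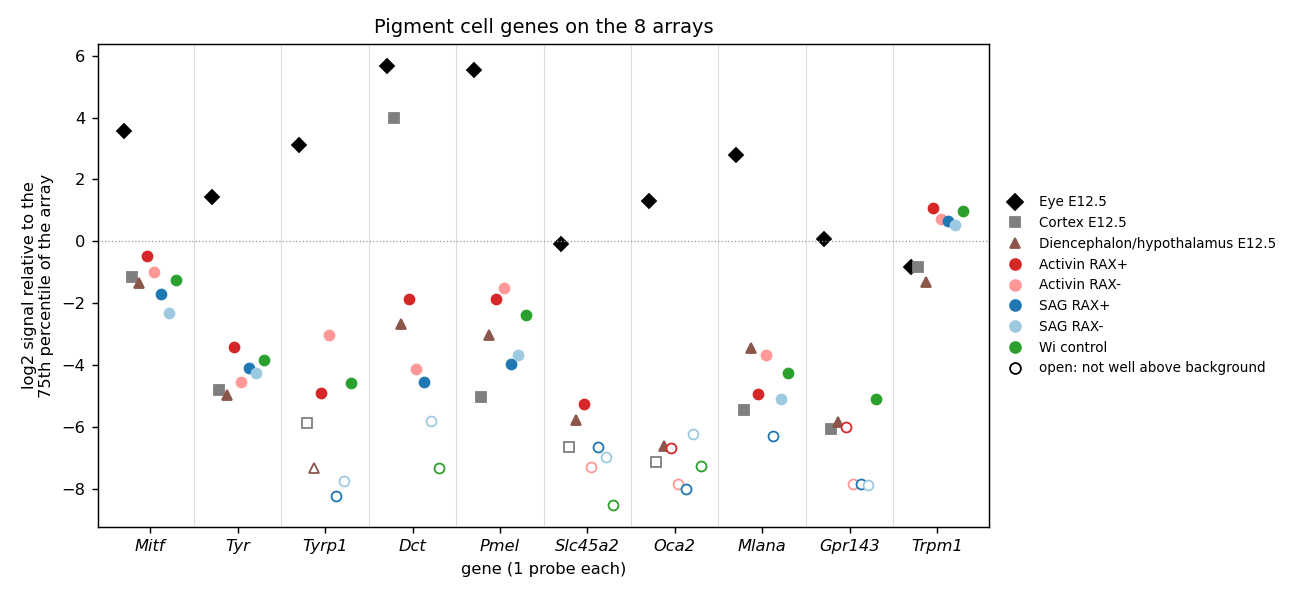
Level of each pigment gene (1 probe each) on the 8 arrays, as log2 signal relative to the 75th percentile of the array; each point is 1 array of pooled RNA, and open points are not well above background. The eye is the highest point for 9 genes, with cortex next to it for Dct (3.98 against 5.67), while Trpm1 is higher in the 5 cultures (0.52 to 1.08) than in eye (-0.84).

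Trpm1, a cation channel of melanocytes and of ON bipolar cells, was the gene whose probes parted. The probe with the highest mean log2 level over the arrays stands for the gene in the counts here. It was detected everywhere and was lower in eye (-0.84) than in the cultures. It was 1.08 and 0.72 in RAX-positive and RAX-negative activin cells, 0.65 and 0.52 in the SAG cells, 0.98 in the Wi control, -0.82 in cortex and -1.31 in diencephalon/hypothalamus. By this probe eye was 2.57-fold to 3.79-fold below the 5 cultures. Its sequence is shown because its composition sets it apart, with the longest run of A and G in capitals.
Trpm1 probe A_55_P2043782, mm9 chr7:71371607-71371666, plus strand: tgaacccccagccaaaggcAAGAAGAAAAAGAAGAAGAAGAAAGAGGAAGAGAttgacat

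Of its 60 bases 47 are A or G, in a run of up to 34, and 0.195% of all probes held as many. The other Trpm1 probes read the opposite way. The probe A_51_P338031, at chr7:71369544-71369603, was 5.20 in eye and -6.19 in diencephalon/hypothalamus and was not well above background on the 6 other arrays. By it eye was at least 1724-fold above every culture. The probe A_55_P2037997, at chr7:71413940-71413999, was -1.36 in eye and -5.45 in RAX-positive activin cells and was not detected on the others, which put eye 17.0-fold above those cells. The Trpm1 probe that was set aside for an outlier spot in the Wi control was 3.14 in eye. Of 4 Trpm1 probes, 3 were thus highest in eye and 1 was not, and the direction for the gene depends on the probe read. Whether the probe rich in A and G reports Trpm1 was not tested.

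**Figure D3:**
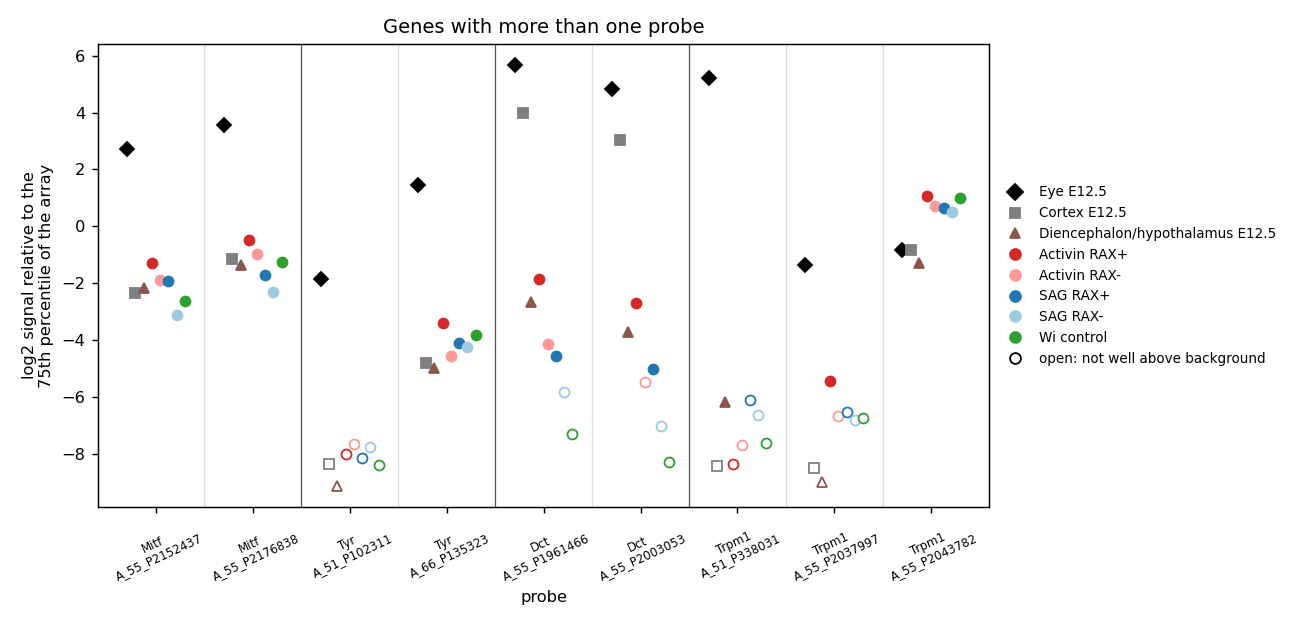
Levels of each probe of the 4 genes with more than 1 probe, on the 8 arrays and the same log2 scale; open points are not well above background. The probes of Mitf, Tyr and Dct all have eye on top, and of the 3 Trpm1 probes drawn A_55_P2043782 has eye below the 5 cultures.

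Against each of the 7 other arrays, 9 of the 10 genes were higher in eye, all but Trpm1. The share of all detected genes higher in eye was 13.4% against RAX-negative and 9.95% against RAX-positive activin cells, 11.1% and 12.5% against RAX-negative and RAX-positive SAG cells, and 17.0% against the Wi control. It was 13.0% against cortex and 10.6% against diencephalon/hypothalamus. Trpm1, by the probe with its highest mean log2 level, was the 1 gene lower in eye, against the 5 cultures alone. The shares of all genes lower in eye were 13.2% and 22.6% against RAX-negative and RAX-positive activin cells, 16.0% and 16.7% against the SAG cells, 20.0% against the Wi control, 7.28% against cortex and 7.93% against diencephalon/hypothalamus. These 9 were above all 5 cultures at once, which 4.94% of genes were, and above all 7 other arrays, which 2.53% of genes were. With the probe brightest in eye standing for each gene, a choice made after seeing the data, all 10 were above the 5 cultures (5.17% of genes) and above the 7 arrays (2.64%). The folds of the 9 genes over the 5 cultures ran from 16.5 to 4114, and 18 of the 45 were lower bounds. The median of the 10 genes' differences between eye and the highest culture was 5.65 on the log2 scale, and -0.72 over all genes. In these bulk samples fewer pigment cells and less RNA per pigment cell cannot be told apart.

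**Figure D4:**
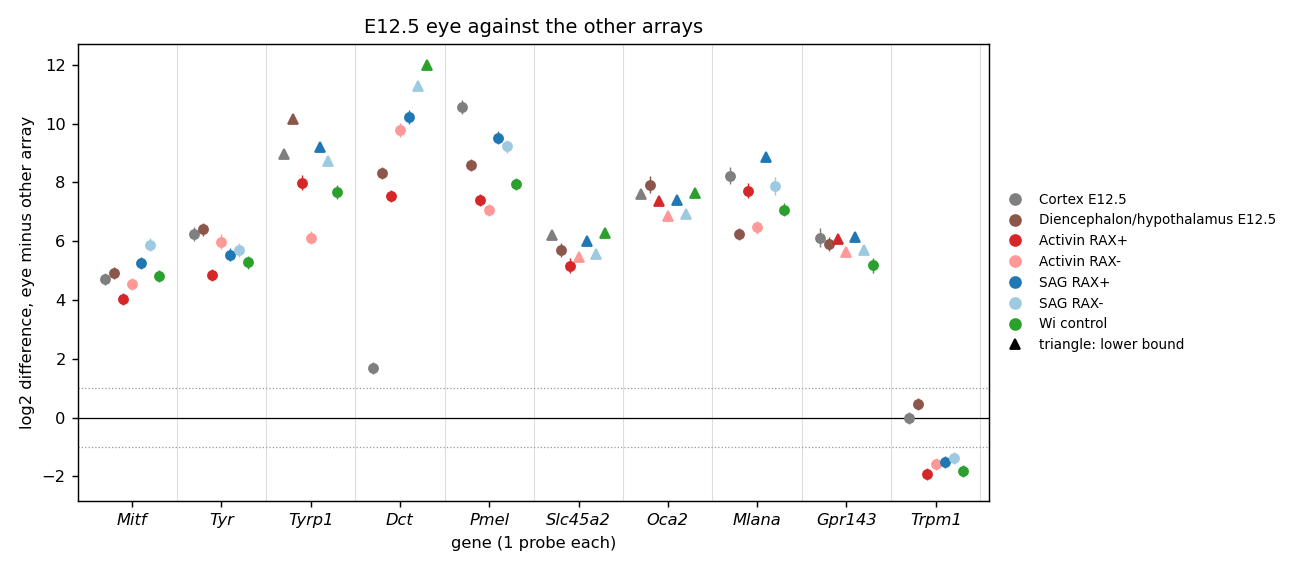
Log2 difference of eye from each other array for the 10 genes, with the scanner software's error as bars; triangles are lower bounds and the dotted lines mark 2-fold. The 9 genes other than Trpm1 lie above 2-fold against all 7 arrays, the lowest being Dct against cortex (1.69), and Trpm1 lies between 0.46 and -1.92.

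Activin was then compared with SAG within each sorted population. Among RAX-positive cells 5 of the 10 genes were higher after activin and 0 lower, where 12.4% of all detected genes were higher and 6.69% lower. Dct was 6.46-fold higher, Pmel 4.36-fold, Mitf 2.34-fold, Tyrp1 at least 2.28-fold and Mlana at least 2.24-fold. Tyrp1 and Mlana fell short of the rule under quantile normalisation (log2 differences of 0.82 and 0.77), in the authors' values (0.88 and 0.44) and with background handled by the normexp method, where Tyrp1 was 0 and Mlana turned (-0.093), so that 3 genes were called under each of these. Among RAX-negative cells the same 5 genes were higher after activin and 0 lower, where 12.7% of genes were higher and 14.7% lower. There Tyrp1 was at least 6.11-fold higher, Pmel 4.49-fold and Mitf 2.53-fold. Dct was at least 2.83-fold and Mlana 2.66-fold higher, and both turned with normexp (log2 differences of -0.24 and -0.082). Under normexp Tyrp1 (0.59) and Mitf (0.83) also fell short there, which left 1 gene, Pmel (1.24). Dct also fell short there in the authors' values (0.98) and by the mean of its probes (0.83), as did Mitf in RAX-positive cells by the mean of its probes (0.93).

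The 5 remaining genes were not called in either population. Tyr, the first enzyme, differed by 0.69 on the log2 scale in RAX-positive and -0.29 in RAX-negative cells, the latter less than its measurement error of 0.29 and positive under median scaling (0.05), quantile normalisation (0.11) and in the authors' values (0.10). Slc45a2 was at least 1.79-fold higher in RAX-positive activin cells, short of the rule, and below background in both RAX-negative populations. Oca2 and Gpr143 were below background in all 4. Trpm1 differed by 0.43 and 0.20 by the probe with its highest mean log2 level, and the other probes were not called.

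Several of these calls rest on dim signals or on 1 probe. In each population 2 of the 5 genes had a SAG value below background, Tyrp1 and Mlana in RAX-positive cells and Tyrp1 and Dct in RAX-negative cells, so that 3 remained where both arrays had to be detected. The second Mitf probe gave 1.55-fold in RAX-positive cells, short of the rule, and 2.35-fold in RAX-negative cells. The second Dct probe gave 5.02-fold in RAX-positive cells and was not detected in either RAX-negative population. The median log2 difference of the pigment genes detected on the brighter array was 1.18 in RAX-positive cells (8 genes) and 1.41 in RAX-negative cells (7 genes). Over all genes so detected it was 0.23 and 0.04. Tyrp1, Slc45a2 and Mlana in RAX-positive cells, and Tyrp1 and Dct in RAX-negative cells, entered through the activin array alone, as lower bounds. The 1.18 lies between the bounds of Tyrp1 (1.19) and Mlana (1.16), so these medians lend no support to a shift of the set. The direction over all genes depended on scaling, since 64.9% of the genes past the rule in RAX-positive cells were higher after activin here and 43.1% to 51.7% were under the 4 other scalings tried, while in RAX-negative cells 46.5% were higher here and 69.7% under median scaling. Under median scaling the counts stayed at 5 in each population.

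**Figure D5:**
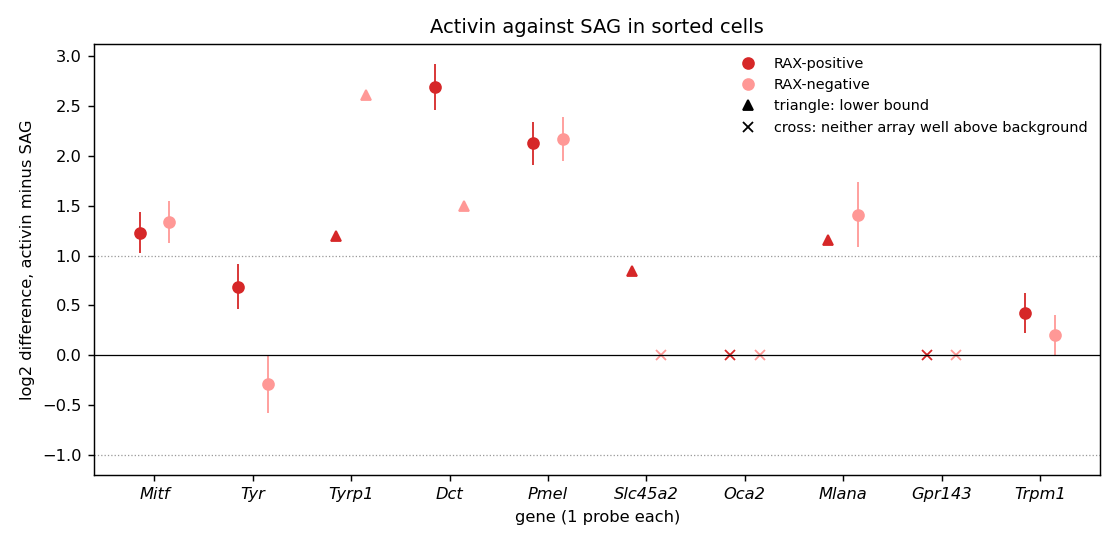
Log2 difference of activin from SAG for the 10 genes in RAX-positive and RAX-negative cells, with the scanner software's error as bars; triangles are lower bounds, crosses mark genes that neither array detected, and the dotted lines mark 2-fold. Mitf, Tyrp1, Dct, Pmel and Mlana lie above 2-fold in both populations with the scaling drawn. Only 3 of them do so in RAX-positive cells under quantile normalisation, normexp and in the authors' values, and under normexp 1 in RAX-negative cells, with Mlana turned in both populations and Dct in RAX-negative cells; Tyr lies between (0.69 and -0.29).

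The 4 sorted arrays allow 1 model, with terms for factor and for population, which leaves 1 residual degree of freedom. It covered the 26482 genes that were well above background on at least 2 of the 4 sorted arrays. Of the pigment genes 7 were among them, since Slc45a2, Oca2 and Gpr143 were too dim. Tyrp1 met this filter through the 2 activin arrays alone, where it was high. With limma and Benjamini-Hochberg adjustment, 0 genes passed an adjusted p of 0.05 in either direction, 1911 were higher and 1670 lower at an unadjusted p under 0.05 (7.22% and 6.31%), and the smallest adjusted p was 0.325. This outcome depended on the scaling. Median scaling gave 750 higher and 562 lower genes at an adjusted p under 0.05, and normexp gave 1169 and 1645. Among them was 1 of the 7 pigment genes under normexp, Pmel, and 3 under median scaling, Pmel, Dct and Tyrp1. With median scaling limma gave every gene the same variance, so the SE was 0.65 for each of the 7. Its calls rest on that 1 pooled variance and lend no support to the 3 genes. The estimates were 2.19 for Dct (SE 0.40), 2.14 for Pmel (SE 0.29), 1.38 for Mlana (SE 0.29) and 1.28 for Mitf (SE 0.30). That of Tyrp1, 4.04 (SE 0.49, limma adjusted p = 0.325), uses SAG signals that are not well above background. It is neither a bound nor comparable with the others, and it was 0.35 with normexp. The estimates of Dct and Mlana share this limit in part. The SAG signal of Dct in RAX-negative cells and that of Mlana in RAX-positive cells were not well above background. With normexp Dct was 0.57 and Mlana -0.088, beside 1.23 for Pmel and 0.92 for Mitf. With the 75th percentile scaling Dct, Pmel, Mlana, Mitf and Tyrp1 had an unadjusted p under 0.05, each higher in both populations, and 0 of 7 passed after adjustment. The p of Tyrp1 lends no support, because the filter kept this gene by the arrays where it was high. Tyr (0.20) and Trpm1 (0.31) did not reach an unadjusted p of 0.05. The 2 populations of a factor are sorted fractions and not separate cultures, so the p-values measure no spread of repeated cultures. Factor cannot be told apart from slide position, because both activin arrays lay at position 1 and both SAG arrays at position 2.

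Genes of other cell types were also called between activin and SAG cells. Of all detected genes, 12.4% were higher and 6.69% lower after activin in RAX-positive cells, and 12.7% and 14.7% in RAX-negative cells. In RAX-positive cells 5 of 11 detected neural retina genes and 4 of 7 detected cortex genes were higher after activin and 0 lower, and of 10 diencephalon and hypothalamus genes 5 were higher and 3 lower. In RAX-negative cells 3 of 13 neural retina genes were higher and 1 lower, 1 of 6 cortex genes was higher and 0 lower, and of 10 diencephalon and hypothalamus genes 1 was higher and 7 lower. Of the lens genes, 5 of 18 were higher and 4 lower in RAX-positive cells, and 4 of 17 higher and 3 lower in RAX-negative cells. Of the blood and vessel genes, 0 of 6 were higher and 1 lower in RAX-positive cells, and 0 of 4 were called in RAX-negative cells. Of 8 genes of pluripotent cells, 6 were higher after activin in RAX-negative cells and 0 lower, and 2 were higher and 1 lower in RAX-positive cells. Their summed level was 83.4 times the 75th percentile in RAX-negative activin cells, 6.06 in RAX-negative SAG cells, and 2.90 and 4.41 in RAX-positive activin and SAG cells. Pou5f1, the defining factor of pluripotent cells, was 206-fold higher after activin in RAX-negative cells and 2.73-fold in RAX-positive cells. All 8 genes were detected in 3 of the sorted populations and 7, without Fgf4, in RAX-positive SAG cells. Of 11 genes of the neural crest and periocular mesenchyme, 8 were detected in RAX-positive cells, 5 higher and 0 lower after activin. In RAX-negative cells all 11 were detected, 4 of these genes higher and 2 lower. Their summed level was 6.08 after activin and 0.593 after SAG in RAX-positive cells, and 20.4 and 12.8 in RAX-negative cells. The 14 genes of neural crest melanoblasts would mark the other pigment lineage. After activin 1 of 12 detected was higher and 2 lower in RAX-positive cells, and 2 of 13 were higher and 4 lower in RAX-negative cells. The summed level of the 14 was 61.7 to 81.5 in the sorted cells and 57.1 in eye. In eye all 14 were detected and 6 lay above the 5 cultures, beside 4.94% of all genes. Gpnmb was below background in all 4 sorted populations. Of the melanoblast genes Sox10, which marks the neural crest and its glia, was -3.10 and -3.03 in RAX-positive activin and SAG cells. Pax3, a crest and dorsal neural factor, was higher after activin, 2.65-fold in RAX-positive and at least 15.2-fold in RAX-negative cells. Kit, the receptor of migrating melanoblasts, was 2.18-fold lower and Fabp7, a fatty acid carrier of glia and progenitors, 2.84-fold lower in RAX-positive activin cells, and Fabp7 was 11.4-fold lower in the RAX-negative ones. The part of these cells in the differences of the pigment genes was not tested.

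Between the sorted populations, RAX-positive activin cells had more Dct (4.78-fold) and Tyr (2.20-fold) and less Tyrp1 (3.68-fold) and Mlana (2.37-fold) than RAX-negative activin cells, where 9.83% of detected genes were higher and 6.11% lower. Tyr fell short of the rule under median scaling (0.83), quantile normalisation (0.94), normexp (0.50), the mean of its probes (0.39) and in the authors' values (0.69). Under normexp Tyrp1 (-0.95) and Mlana (-0.54) fell short as well, and Dct (1.45) stayed past the rule. Slc45a2, detected in the RAX-positive cells alone, was at least 1.24-fold higher there, short of the rule. In the authors' values its sign turned, with 5.01 in RAX-positive and 5.11 in RAX-negative activin cells. Oca2 and Gpr143 were below background in both populations. Mitf differed by 0.51, Pmel by -0.34 and Trpm1 by 0.36 on the log2 scale, all short of the rule. After SAG, 1 gene passed it, where 4.42% of genes were higher and 9.34% lower: Dct was at least 2.09-fold higher in RAX-positive cells, with the sign turned under normexp (-0.17). Its second probe gave at least 1.52-fold, short of the rule, and Dct fell short in the authors' values (0.56). Mlana was at least 1.99-fold lower in RAX-positive SAG cells, short of the rule. Mitf (0.62; 2.30-fold and past the rule by its second probe), Tyr (0.16), Pmel (-0.29, turned to 0.07 in the authors' values) and Trpm1 (0.14) were not called, and Tyrp1, Slc45a2, Oca2 and Gpr143 were below background in both SAG populations. Of the genes past the rule over the whole array, 61.7% were higher in RAX-positive activin cells here and 34.6% to 44.1% under the 4 other scalings. Population cannot be told apart from slide column, since RAX-positive arrays lay in column 1 and RAX-negative arrays in column 2.

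The machinery that builds and moves melanosomes was mostly shared by all samples. Of 37 such genes, all 37 were detected in eye and 33 to 36 on each other array. In eye 8 were above all 5 cultures, beside 4.94% of all genes. Gpnmb, a glycoprotein of late melanosomes, was 1.63 in eye and detected elsewhere only in diencephalon/hypothalamus (-6.59), at least 145-fold above the cultures. Bace2, a protease that cuts Pmel, was 3.12 in eye and 96.3-fold above the highest culture. Mlph, an adaptor of melanosome transport, was at least 5.68-fold above the cultures in eye, and Mc1r, the receptor for the melanocyte-stimulating hormone, at least 3.35-fold. After activin 5 of the 37 were higher and 1 lower in RAX-positive cells, and 4 higher and 2 lower in RAX-negative cells, of 35 detected in each. The shares of all genes were 12.4% and 6.69%, and 12.7% and 14.7%, so the counts of higher genes lie near the background. Of the genes named by the size of their difference, Rab38, which carries Tyrp1 to melanosomes, was 8.31-fold and 22.6-fold higher in the RAX-positive and RAX-negative cells, at levels of -1.47 and 1.37 after activin. Rab27a, which ties melanosomes to the actin motor, was 3.37-fold and 8.04-fold higher, and Rab32, a close relative of Rab38, 2.23-fold and 4.44-fold higher. Bace2 was lower after activin in both, by 2.12-fold and 3.21-fold.

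Of 26 relatives and regulators of Mitf in the eye, 8 were above the 5 cultures in eye, beside 4.94% of all genes. In RAX-positive cells 10 of 23 detected were higher and 3 lower after activin, beside 12.4% and 6.69% of all genes. In RAX-negative cells 7 of 24 were higher and 5 lower, beside 12.7% and 14.7%. Pax6, a factor of both retinal layers, was at least 51.0-fold higher after activin in RAX-positive and at least 6.82-fold in RAX-negative cells, with both SAG populations below background. Dkk3 was 39.2-fold higher in RAX-positive activin cells, and Tbx2 was 4.29-fold lower. Tfec, the relative of Mitf in the pigment epithelium, was -1.75 in eye, -5.06 in cortex and -5.75 in diencephalon/hypothalamus and below background in every culture.

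Of 25 other genes of the retinal pigment epithelium, 21 were detected in eye, and Rpe65, Rgr, Best1 and Lrat were not. Of the 21, 13 were above the 5 cultures, beside 4.94% of all genes. Among the 13 were Trpm3 (at least 59.9-fold), the retinol receptor Stra6 (27.5-fold), C1qtnf5 (at least 23.7-fold) and the thyroxine carrier Ttr (12.8-fold). After activin 7 of 18 detected were higher and 3 lower in RAX-positive cells, beside 12.4% and 6.69% of all genes. In RAX-negative cells 6 of 19 were higher and 4 lower, beside 12.7% and 14.7%. Serpinf1, a secreted factor of the epithelium, was 6.48-fold and 3.24-fold higher, and Sfrp5 was 4.36-fold and at least 51.5-fold higher. Enpp2, a lysophospholipase, was lower after activin in both, by 3.73-fold and 2.14-fold. Col8a2, a collagen, was 3.47-fold and 2.39-fold higher, and Rlbp1, a retinoid carrier, was 2.72-fold higher in RAX-positive cells and not called in RAX-negative cells. Trpm3, Stra6, Tfec, C1qtnf5 and Ttr, the genes with the largest eye excess, were not called between activin and SAG in either population. The lists were chosen with earlier results of these data known, and their counts are given beside the shares of all genes.

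Across the 8 arrays, the levels of Mlana, Pmel and Mitf followed the median of the 10 genes most closely, with Pearson correlations of 0.98 each, and Dct (0.64) and Trpm1 (-0.38) least. Each member is part of that median, which raises its own correlation by construction. Values not well above background entered as measured. The other members lay between 0.90 (Slc45a2) and 0.95 (Oca2). Among 11816 genes detected in eye with levels spanning at least 2 on the log2 scale, the 10 non-members most like this median were Cdhr4 (0.98), Gpnmb (0.98), Inmt (0.98), Cryaa (0.98), Cryga (0.98), Myot (0.97), Wfdc1 (0.97), Hgf (0.97), Tchhl1 (0.97) and Cryab (0.97). Cryaa, Cryga and Cryab are lens crystallins, and Gpnmb is the melanosome glycoprotein already described. Of the 10, Myot, Hgf and Tchhl1 were detected in eye alone. Each correlation is over 8 arrays, 7 of which share a slide, with eye the highest of the 8 for 9 of the members.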

How the data were processed

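Feature Extraction 10.7.3.1 made the spot tables and probes sit on build mm9, per the file headers; the submitters' processing notes name version 9.1 and limma. The deposited scanner tables hold intensity per spot, background-subtracted and not scaled between arrays, with calls of detection and outliers. The deposited value table holds the authors' log2 values, normalized between arrays; its background step is not given in the sources used here, and it served as an alternative. Of 62976 spots per array, 3671 were controls. Outlier spots were dropped, repeated spots averaged, and 262 probes with outlier spots alone on an array left out. RefSeq accessions named 28020 of 55681 probes and the files 27661. Processed signals were divided by the array's 75th percentile and taken to log2. A gene was read from the probe with the highest mean of these log2 levels over the arrays. Precision is limited by 1 array per group; no array had saturated spots (0). The model used limma 3.58.1 (lmFit, eBayes) in R 4.3.3 and was tested on simulated data. Figures and counts used Python 3.11.15.

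The rule named all 10 members and, of other lists, at most the 5 genes with the largest eye excess and the 5 with the largest activin difference in RAX-positive cells, and the 10 genes most like the members' median. The members and the gene lists were chosen with earlier results of these data known. The alternatives were median scaling, quantile normalization, normexp background (offset 50), the authors' values, the mean of all probes, a difference of at least 2, detection on both arrays, no detection filter in limma and, added after seeing the data, the probe with the highest eye level. Exon and UTR positions of the probes were not analysed here.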

Additional observations from a re-analysis of the deposited data

How the results depend on the processing

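The 9 genes higher in eye than each other array stayed 9 under median scaling, quantile normalization, normexp and the authors' values. The mean of all probes and the probe with the highest eye level raised them to 10 and turned Trpm1, whose 1 lower call in 5 cultures became 0 (also at a difference of 2). Its eye differences became 5.54, 5.25, 5.31, 4.99 and 5.46 with the mean of probes and 10.75, 11.27, 10.83, 11.29 and 11.54 with the eye probe, against RAX-negative and RAX-positive activin cells, RAX-negative and RAX-positive SAG cells and the Wi control. Where both arrays had to be detected, eye exceeded each SAG population in 4 genes. Higher after activin in RAX-positive cells were 3 genes with quantile normalization, normexp, the authors' values or both arrays detected, and 2 at a difference of 2. In RAX-negative cells they were 3 with both arrays detected, 2 at a difference of 2 and 1 with normexp. Normexp reversed Mlana (-0.093 and -0.082), Dct in RAX-negative cells (-0.24) and Dct across the SAG gate (-0.17). Normexp handles the background in another way and adds an offset of 50 to every signal. The cause of these and the other changes was not tested. Across the activin gate, genes higher fell to 1 with median scaling, quantile normalization, normexp, the authors' values, the mean of probes or a difference of 2, and genes lower to 0 with normexp and a difference of 2. Across the SAG gate, genes higher fell to 0 with normexp, the authors' values, the mean of probes, both arrays detected and a difference of 2, and quantile normalization gave 1 lower. In limma, 3 of the 7 genes passed the adjusted p with median scaling, Pmel, Dct and Tyrp1, where all genes were given 1 common variance. With normexp 1 passed, Pmel, and 0 did with quantile normalization, the authors' values and no filter. Over all genes median scaling gave 750 higher and 562 lower, normexp 1169 and 1645. The other scalings moved the median difference of all genes by -0.52 to 0.34. The share of genes past the rule that were higher in eye moved from 64.0% to 25.7% (median scaling) and 51.2% (quantile) against cortex, from 50.4% to 31.9% (median) against RAX-negative activin cells, from 30.6% to between 50.1% and 52.6% against RAX-positive activin cells (quantile, normexp, authors' values), from 40.9% to 26.1% (normexp) and 52.9% (authors' values) against RAX-negative SAG cells, and from 42.9% to 54.3% (authors' values) against RAX-positive SAG cells; across the SAG gate it moved from 32.1% to 48.5% (median). No paired analysis of repeated experiments was possible because each group was 1 array of pooled RNA. The limma model has the sorted population as its only term beside the factor. Depth limits Slc45a2, Oca2 and Gpr143 most: a difference between cultures was not detectable for these below the lowest signals well above background.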
